A study of Saccharomyces cerevisiae with 2 samples.

Results

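The autophagy genes of the budding yeast Saccharomyces cerevisiae were examined in 2 libraries of messenger RNA. Members were all genes whose symbol in the deposited tables is ATG followed by a number, together with VPS30, VPS34 and YPT7, which gave 30 of 5659 genes. ZGR3 is a mutant in the ZTW1 background, and ZTW1 is the wild type parent, both labelled as bioethanol strains. Each strain is represented by 1 library, from cells grown in YPD, a rich glucose medium, and collected at entry into early stationary phase. The labels do not say what is mutated in ZGR3, so no gene could be used to check its identity, and they do not give ploidy or whether the strain is 1 clone. Totals were 4.61 M reads assigned to genes for ZGR3 and 4.66 M for ZTW1 (M, mega). With 1 library per strain there is no test between strains, and every interval below covers counting error only. Reads carry no molecular identifiers, so copies of 1 molecule cannot be recognised and the intervals may be too narrow even for that error. Less RNA per cell and fewer cells with a transcript cannot be told apart in such bulk samples.

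Autophagy delivers cytoplasm to the vacuole, the lytic compartment of yeast, inside vesicles bounded by a double membrane. The Atg1 kinase complex starts the process when TOR complex activity is low. Vesicles carrying Atg9, a lipid kinase complex and the lipid transfer protein Atg2 build the membrane, and a pair of ubiquitin-like systems attaches Atg8 to it. Receptor proteins select cargo such as mitochondria or vacuolar enzymes, and the vacuole then takes up and breaks down the contents. In yeast the pathway is known for its activity when nutrients run out, including growth into stationary phase.

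All 30 genes had reads in both libraries, with 10 to 2331 reads per gene in ZGR3 and 22 to 2541 in ZTW1. Together they held 12196 reads in ZGR3, or 0.265% of its total (95% Clopper-Pearson interval 0.260 to 0.269), and 12041 reads in ZTW1, or 0.258% (0.254 to 0.263). The summed reads differed by 1.02-fold between ZGR3 and ZTW1, with a counting interval of 0.999 to 1.05 that includes equality. The transcript level per length, RPKM (reads per kilobase of coding length and per M reads), had a median of 36.1 over the members in ZGR3 and 35.1 in ZTW1. The median over the 5532 genes kept by a filter of 1 RPKM on the mean of both libraries was 31.8 in ZGR3 and 32.6 in ZTW1. The autophagy genes as a group therefore lay near the middle of the transcriptome in level.

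Levels within the pathway spanned a wide range. ATG33, for a mitochondrial outer membrane protein used in mitophagy, had the highest level, 851 RPKM in ZGR3 and 918 RPKM in ZTW1. This placed it at percentile 96.9 of all genes in ZGR3 and 97.0 in ZTW1. ATG8, ATG19 and ATG15 followed at 140 to 219 RPKM over both libraries, and ATG32 stood at 104 RPKM in ZGR3 and 93.1 RPKM in ZTW1. These 5 genes encode mitophagy factors, the ubiquitin-like protein of the membrane, a cargo receptor and the vacuolar lipase. At the other end, ATG10 had 4.30 RPKM in ZGR3 and 9.37 RPKM in ZTW1, which is percentile 7.63 of all genes in ZGR3 and 15.6 in ZTW1. ATG14, the subunit that directs the lipid kinase to autophagy, stood at 9.43 RPKM in ZGR3 and 10.2 RPKM in ZTW1. The level of ATG33 was 198 times that of ATG10 in ZGR3 and 98.0 times in ZTW1. The change in this ratio rests on ATG10 and its few reads, 10 in ZGR3 and 22 in ZTW1. Across the 30 genes, which are not independent replicates and share the same pair of libraries the order of levels was much alike, with Pearson's r of 0.975 between log2(RPKM + 1) in ZGR3 and ZTW1 and a rank correlation (Spearman's rho) of 0.962.

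**Figure D1:**
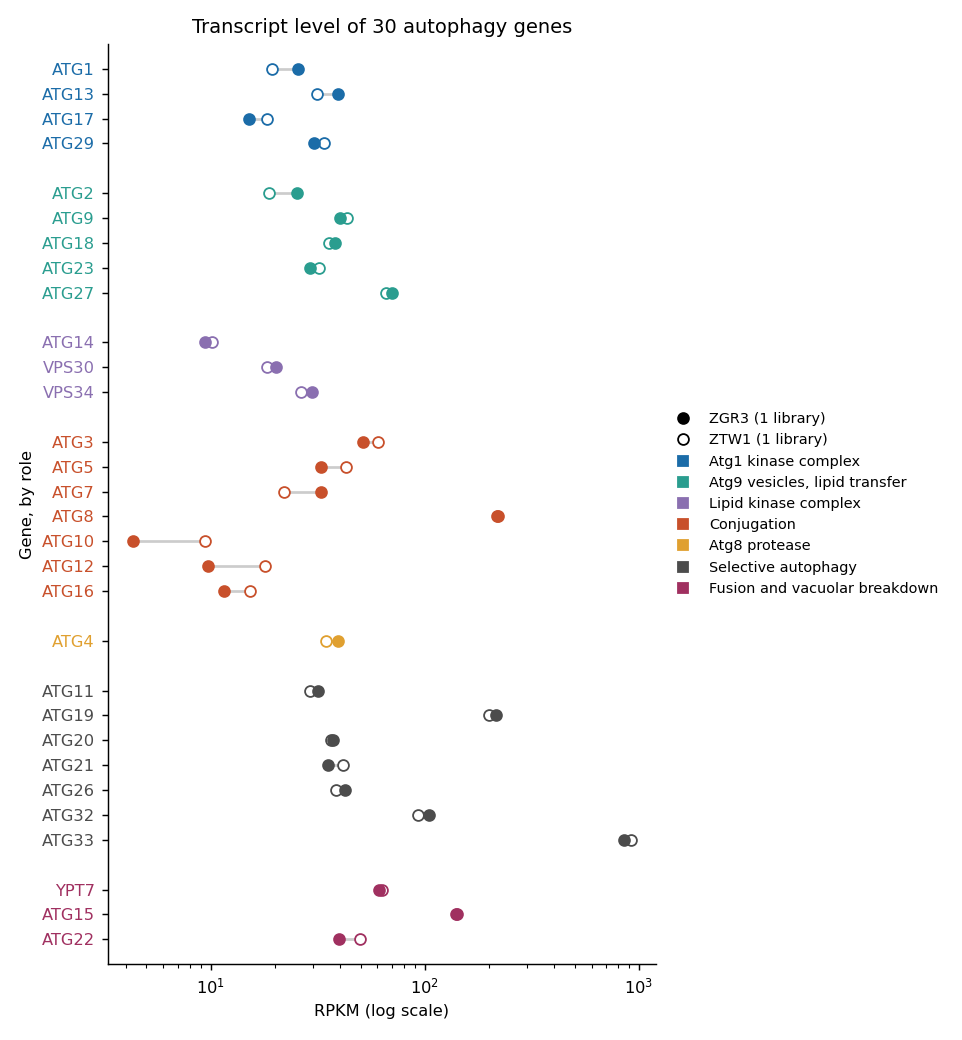
Level of each of the 30 autophagy genes in RPKM on a log axis, with filled circles for the ZGR3 library and open circles for the ZTW1 library, in rows grouped and coloured by role. ATG33 lies furthest right at 851 RPKM in ZGR3 and 918 RPKM in ZTW1, and ATG10 furthest left at 4.30 RPKM in ZGR3 and 9.37 RPKM in ZTW1.

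Transcript profiles of the mutant and its parent were set against each other to find where they differ. On the scale log2((RPKM ZGR3 + 1)/(RPKM ZTW1 + 1)), which understates differences of low genes, 15 members lay above 0 and 15 below. Their median was −0.002, and that of all 5532 genes was −0.016. No member was at least 2-fold higher, where 0.542% of all genes were, and none was at least 2-fold lower, where 1.92% were. No member was at least 1.5-fold higher (3.63% of all genes) and 2 were at least 1.5-fold lower (7.39% of all genes), ATG10 and ATG12. With a pseudocount of 0.1 RPKM in place of 1, ATG10 was past 2-fold lower. The counting interval lay above equality for 6 members, ATG1, ATG2, ATG7, ATG13, ATG19 and ATG32 (17.9% of all genes), and below it for 4, ATG5, ATG12, ATG22 and ATG33 (19.8% of all genes). For the other 20 members no difference was detectable at this depth. These counts are near the shares of all genes, so the pathway as a whole did not stand out in size of difference.

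**Figure D2:**
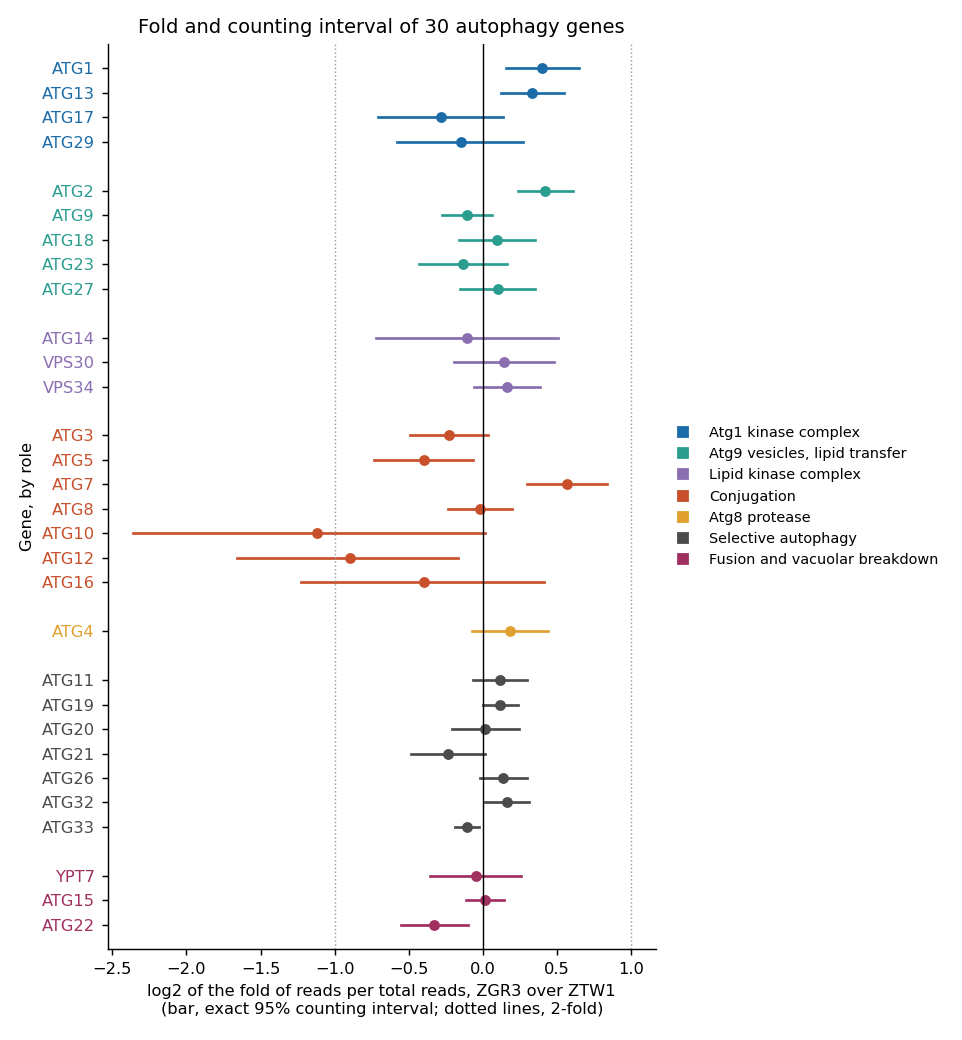
Fold of reads per total reads, ZGR3 over ZTW1, on a log2 axis for each of the 30 autophagy genes, with bars for the exact 95% counting interval and dotted lines at 2-fold. The bars of ATG1, ATG2, ATG7, ATG13, ATG19 and ATG32 lie right of 0, and those of ATG5, ATG12, ATG22 and ATG33 left of it.

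Among genes of the Atg1 kinase complex, the catalytic subunit and its regulator were higher in ZGR3, and the scaffold genes had intervals that include equality. ATG1, for the protein kinase that initiates autophagy, had 316 reads (25.4 RPKM) in ZGR3 and 242 reads (19.3 RPKM) in ZTW1, 1.32-fold higher (95% counting interval 1.11 to 1.57). ATG13, whose product is phosphorylated through TOR complex activity and binds Atg1, had 403 reads (39.4 RPKM) in ZGR3 and 323 reads (31.3 RPKM) in ZTW1, 1.26-fold higher (1.09 to 1.46). The scaffold gene ATG17 had 87 reads (15.1 RPKM) in ZGR3 and 107 reads (18.3 RPKM) in ZTW1, a fold of 0.822 (0.612 to 1.10). ATG17 was thus on the other side of 0 from ATG1 and ATG13, but its interval includes equality. ATG29, for a partner of the scaffold, had 90 reads (30.4 RPKM) in ZGR3 and 101 reads (33.8 RPKM) in ZTW1, a fold of 0.901 (0.671 to 1.21). In the RefSeq annotation of assembly R64, ATG29 is the only member whose gene model overlaps another, that of SET6, so reads of the 2 genes may not be separable. Over the 4 genes the summed reads were 896 in ZGR3 and 773 in ZTW1, 1.17-fold higher (1.06 to 1.29), and the median log2 ratio was 0.09. Most of these reads are of ATG1 and ATG13, so the sum mainly restates those genes. The summed RPKM was 110 in ZGR3 and 103 in ZTW1.

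In the group that supplies membrane, ATG2 was higher in ZGR3 and the other genes differed little before correction. ATG2, for the protein that transfers lipid into the growing membrane, had 554 reads (25.1 RPKM) in ZGR3 and 418 reads (18.8 RPKM) in ZTW1, 1.34-fold higher (1.18 to 1.53). ATG18, for a lipid-binding partner of Atg2, had 38.0 RPKM in ZGR3 and 35.5 RPKM in ZTW1, a log2 ratio of 0.09. ATG9, for the transmembrane protein of the vesicles, had 40.1 RPKM in ZGR3 and 43.1 RPKM in ZTW1, a log2 ratio of −0.10. Both of these intervals include equality. ATG23 and ATG27, for proteins that help move Atg9, had log2 ratios of −0.13 and 0.10 and intervals that include equality. The lipid kinase complex likewise held no gene whose interval excludes equality. VPS34, the phosphatidylinositol 3-kinase gene, had 29.6 RPKM in ZGR3 and 26.5 RPKM in ZTW1, and VPS30, the yeast relative of Beclin, had 20.2 RPKM in ZGR3 and 18.3 RPKM in ZTW1. ATG14 had 45 reads in ZGR3 and 49 in ZTW1, and its interval of 0.606 to 1.42 leaves a difference of that size undetected. The level of VPS34, which also serves vacuolar protein sorting in another complex, was 3.14 times that of ATG14 in ZGR3 and 2.60 times in ZTW1.

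The conjugation genes varied most among themselves. Of 7 genes, 6 had a log2 ratio below 0, where 52% of all genes did, and the group's median was −0.37. Those 6 genes are all under 1000 bases long, and 60.4% of all genes of that length lay below 0. The remaining gene, ATG7, had the highest log2 ratio of all 30 members, 0.55. The summed reads, 1050 in ZGR3 and 1095 in ZTW1, differed by a fold of 0.970 (0.890 to 1.06). Without ATG7, left out after its value was seen, the other 6 genes held 766 reads in ZGR3 and 901 in ZTW1, 1.16-fold lower (1.06 to 1.28). Leaving out the highest gene moves the fold away from equality by choice, so this interval is no result for the group.

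ATG7 encodes the activating enzyme shared by both ubiquitin-like systems. It had 284 reads (32.5 RPKM) in ZGR3 and 194 reads (22.0 RPKM) in ZTW1, 1.48-fold higher (1.23 to 1.79). Downstream of it the conjugating enzyme genes lay on the other side of 0. ATG10, for the enzyme that passes Atg12 to Atg5, had 10 reads (4.30 RPKM) in ZGR3 and 22 reads (9.37 RPKM) in ZTW1, 2.18-fold lower with an interval of 0.989 to 5.15 that includes equality. ATG3, for the enzyme that passes Atg8 to the lipid, had 221 reads (51.4 RPKM) in ZGR3 and 262 reads (60.2 RPKM) in ZTW1, 1.17-fold lower (0.977 to 1.41). Neither of these 2 differences was detectable at this depth. The reads of ATG10 covered 50.0% of its length in ZGR3 and 90.3% in ZTW1.

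In the Atg12 system, ATG12 and ATG16 had low levels and ATG5 a level near the median of all genes. ATG12, for the ubiquitin-like protein joined to Atg5, had 25 reads (9.67 RPKM) in ZGR3 and 47 reads (18.0 RPKM) in ZTW1, 1.86-fold lower (1.12 to 3.15). ATG5, for its target, had 133 reads (32.6 RPKM) in ZGR3 and 177 reads (42.9 RPKM) in ZTW1, 1.32-fold lower (1.05 to 1.66). ATG16, whose product binds the joined proteins and dimerises, had 24 reads (11.5 RPKM) in ZGR3 and 32 reads (15.2 RPKM) in ZTW1, 1.32-fold lower (0.753 to 2.34). ATG5 and ATG12, which encode the 2 proteins of this conjugate, thus both had intervals below equality, while that of ATG16 includes it. The level of ATG5 was 3.37 times that of ATG12 in ZGR3 and 2.39 times in ZTW1, and that of ATG5 was 2.84 times that of ATG16 in ZGR3 and 2.83 times in ZTW1.

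ATG8, whose protein is attached to phosphatidylethanolamine in the growing membrane, had nearly equal values. It had 353 reads (216 RPKM) in ZGR3 and 361 reads (219 RPKM) in ZTW1, a fold of 0.989 (0.851 to 1.15). The sign of its log2 ratio, −0.02, turned positive when the median of all genes was set to 0, under trimmed mean of M values scaling and after correction for length. The protease gene ATG4, whose product trims Atg8 and later frees it, had 270 reads (39.4 RPKM) in ZGR3 and 240 reads (34.7 RPKM) in ZTW1, a fold of 1.14 (0.952 to 1.36). The level of ATG8 was 22.4 times that of ATG12 in ZGR3 and 12.2 times in ZTW1. The change in this ratio rests on ATG12 and its few reads.

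Genes of selective autophagy were close to equal in ZGR3 and ZTW1, with a median log2 ratio of 0.11 over 7 genes and a range of −0.23 to 0.16. The median was 0.02 after correction for length and −0.007 after subtraction of the median of the 10 genes on each side on the chromosome, an alternative chosen after seeing the data. ATG11, for the scaffold that links cargo receptors to the machinery, had 514 reads (31.5 RPKM) in ZGR3 and 480 reads (29.1 RPKM) in ZTW1, a fold of 1.08 (0.954 to 1.23). ATG19, for the receptor of vacuolar aminopeptidase in the Cvt pathway, the biosynthetic route that runs in growing cells, had 1240 reads (216 RPKM) in ZGR3 and 1155 reads (199 RPKM) in ZTW1, a fold of 1.09 (1.001 to 1.18). The interval of ATG19 only just excludes equality. The mitophagy receptor gene ATG32 had 764 reads (104 RPKM) in ZGR3 and 690 reads (93.1 RPKM) in ZTW1, a fold of 1.12 (1.01 to 1.24). ATG33, which also serves mitophagy, had 2331 reads (851 RPKM) in ZGR3 and 2541 reads (918 RPKM) in ZTW1, 1.08-fold lower (1.02 to 1.14). The 2 mitophagy genes thus lay on opposite sides of equality by small amounts before correction. After subtraction of the neighbour median both lay below 0, ATG32 at −0.007 and ATG33 at −0.12. After correction for length ATG33 was at −0.02.

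The other selective genes had intervals that include equality. ATG20, for a sorting nexin of the Cvt pathway, had 328 reads in both libraries, 37.0 RPKM in ZGR3 and 36.6 RPKM in ZTW1. ATG21, for a phosphoinositide-binding protein, had 242 reads (35.2 RPKM) in ZGR3 and 288 reads (41.4 RPKM) in ZTW1, 1.18-fold lower (0.989 to 1.40). ATG26, a sterol glucosyltransferase gene whose part in peroxisome breakdown is known from methylotrophic yeasts, had 698 reads (42.1 RPKM) in ZGR3 and 641 reads (38.2 RPKM) in ZTW1, a fold of 1.10 (0.988 to 1.23). At the vacuole, YPT7, the small GTPase gene of membrane fusion, had 61.2 RPKM in ZGR3 and 63.3 RPKM in ZTW1. ATG15, for the lipase that opens the delivered vesicles, had 1018 reads (141 RPKM) in ZGR3 and 1020 reads (140 RPKM) in ZTW1. Both were close to equal, whereas ATG22 was lower in ZGR3. ATG22, for an exporter of amino acids from the vacuole, had 290 reads (39.6 RPKM) in ZGR3 and 368 reads (49.8 RPKM) in ZTW1, 1.26-fold lower (1.07 to 1.47).

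The members' log2 ratios moved with coding length. Among 10 members under 1000 bases, 9 lay below 0, where 60.4% of the 2128 genes of that length did, and the median was −0.19, against −0.08 for those genes. Among 7 members over 2000 bases, 6 lay above 0, where 59.8% of the 1261 genes of that length did, and the median was 0.16, against 0.07 for those genes. The 13 members between had a median of 0.02, against −0.004 for 2143 genes. The medians of members and of all genes thus lay on the same side of 0 in the short and in the long class. The counting interval includes equality for 7 of the 10 short members and 4 of the 7 long ones, and ATG27 (816 bases) and ATG9 (2994 bases) lay on the other side of 0 from their class. Across the 30 members the log2 ratio and length had Spearman's rho of 0.67, against 0.19 across all 5532 genes, and no test was made of that difference. ATG10 (504 bases), ATG12 (561 bases) and ATG16 (453 bases) are among the 4 shortest members, and the other of these is ATG8 (354 bases), which did not share their log2 ratios. After subtraction of the running median of genes ordered by length, ATG10 was at −0.85, ATG12 at −0.73, ATG5 at −0.31, ATG1 at 0.31, ATG2 at 0.31 and ATG13 at 0.30. The corrected median of the conjugation genes was −0.27.

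**Figure D3:**
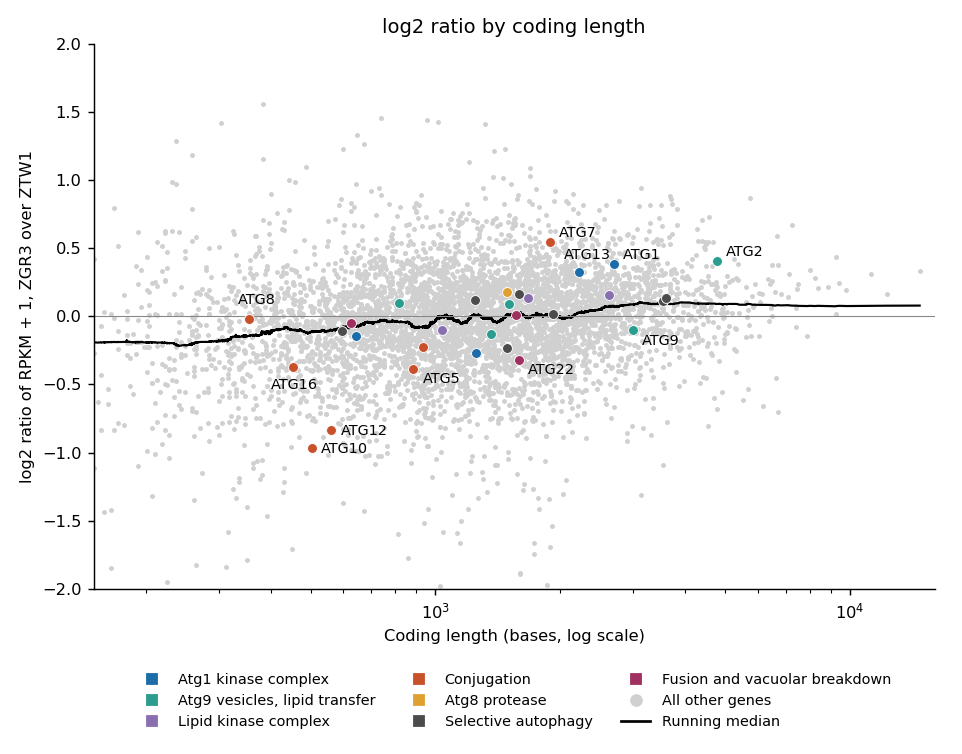
The log2 ratio of RPKM + 1, ZGR3 over ZTW1, against coding length in bases on a log axis, for the autophagy genes coloured by role and all other genes that passed the filter in grey, with the running median as a line. Of all genes, 44 lie outside the axes. ATG10 and ATG12 lie at −0.97 and −0.83 among short genes, and ATG7 is highest at 0.55.

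ATG7 lay among genes that were themselves higher in ZGR3. Gene order was taken from assembly R64, and the members lie on 13 chromosomes. The 10 measured genes on each side of ATG7, on chromosome VIII, had a median log2 ratio of 0.29, the highest neighbour median among the 30 members, and ATG7 was 0.25 above it. For ATG1, ATG2 and ATG13 the neighbour medians were 0.03, −0.001 and −0.09, so these genes stood 0.36, 0.40 and 0.42 above their surroundings. For ATG10 and ATG12 the neighbour medians were −0.10 and −0.15, and the genes were at −0.86 and −0.68 relative to them. ATG32 was at −0.007 relative to its neighbours, whose median was 0.17. ATG9 was at −0.30 relative to its neighbours, whose median was 0.20.

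**Figure D4:**
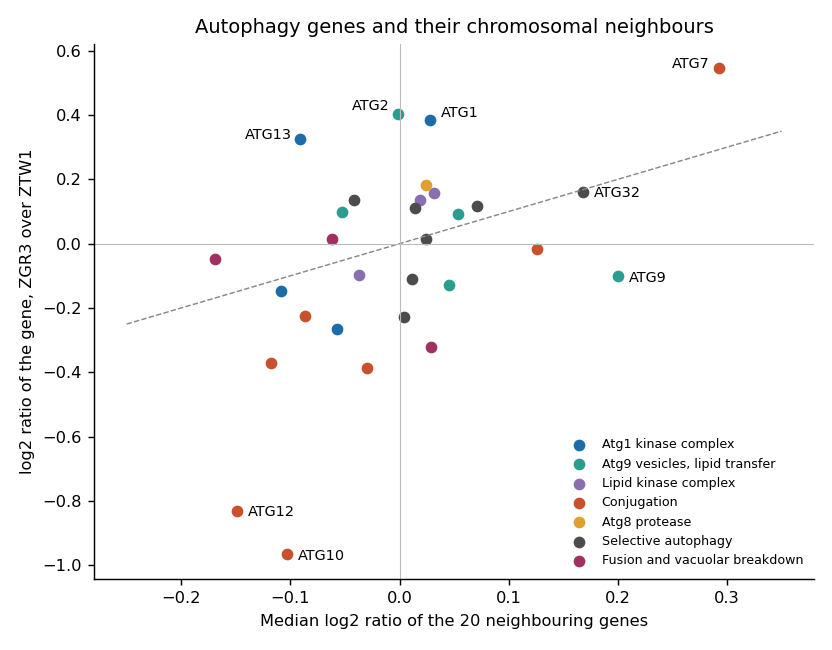
The log2 ratio of each of the 30 autophagy genes, ZGR3 over ZTW1, against the median log2 ratio of the 20 genes around it, coloured by role, with equality of both as a dashed line. ATG7 lies furthest right at 0.29, and ATG1, ATG2 and ATG13 lie well above neighbours that are near 0.

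Genes with similar numbers of reads give a further background. Of 428 genes with a mean read number within a factor of 2 of that of ATG10, 5.61% had a log2 ratio as low or lower, and for ATG12 this was 5.15% of 970 genes. Of 2080 such genes for ATG7, 2.98% were as high or higher. The shares were 6.70% for ATG2, 8.09% for ATG1 and 11.2% for ATG13. The genes named so far in this paragraph are those with the smallest shares of all members, so their small values follow from the choice. For the other members the share ran from 12.8% (ATG5) to 54.9% (ATG15). The shares therefore do not show that the pathway stood out. They describe the pair of libraries and are not p-values.

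Assembly R64 gives ATG names to 10 further genes that the deposited tables list under other names, matched by gene ID and not counted among the 30. Their median log2 ratio was −0.05, with 5 above 0 and 5 below. None was at least 1.5-fold higher (3.63% of all genes) or lower (7.39% of all genes). CIS1, now ATG31, for the third protein of the scaffold with Atg17 and Atg29, had 123 reads (45.1 RPKM) in ZGR3 and 143 reads (51.9 RPKM) in ZTW1, a fold of 0.870 (0.678 to 1.11). All 3 genes of this scaffold thus had log2 ratios below 0 and intervals that include equality. YOL083W, now ATG34, the receptor gene next to and related to ATG19, had 1145 reads (200.5 RPKM) in ZGR3 and 974 reads (169 RPKM) in ZTW1, 1.19-fold higher (1.09 to 1.30). Sharing of reads between ATG19 and YOL083W was not tested.

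Receptor genes for other organelles lay on different sides of equality. YLR312C, now ATG39, for the receptor of the nuclear envelope, had 1560 reads (283 RPKM) in ZGR3 and 1421 reads (255 RPKM) in ZTW1, 1.11-fold higher (1.03 to 1.19). YOR152C, now ATG40, for the receptor of the endoplasmic reticulum, had 248 reads (69.8 RPKM) in ZGR3 and 306 reads (85.2 RPKM) in ZTW1, 1.22-fold lower (1.03 to 1.45). YJL185C, now ATG36, for the peroxisome receptor, had 400 reads (98.4 RPKM) in ZGR3 and 505 reads (123 RPKM) in ZTW1, 1.25-fold lower (1.09 to 1.43). The receptor genes described up to here thus were not all on 1 side. ATG19, YOL083W, ATG32 and YLR312C were higher in ZGR3 and YOR152C and YJL185C lower, by at most 1.25-fold among these genes. YBR139W, now ATG42, a vacuolar carboxypeptidase gene, had 389 RPKM in ZGR3 and 433 RPKM in ZTW1, 1.11-fold lower (1.06 to 1.17). YIL024C, now ATG45, was assigned no role here and is not in that tally. It had 93.6 RPKM in ZGR3 and 73.8 RPKM in ZTW1, 1.27-fold higher (1.05 to 1.54). The intervals of YIL156W-B (ATG44), ICY2 (ATG41) and YLR211C (ATG38) include equality.

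The other genes of the pathway, in 4 lists, had medians near 0. Of 29 regulators of autophagy, 18 lay above 0 (48% of all genes) and the median was 0.03, with the interval above equality for 7 (17.9% of all genes) and below it for 3 (19.8% of all genes). SCH9, for a kinase that acts under TOR complex 1, had 1016 reads (89.1 RPKM) in ZGR3 and 593 reads (51.4 RPKM) in ZTW1, 1.73-fold higher (1.56 to 1.92). KOG1, for a subunit of TOR complex 1, had 477 reads (22.1 RPKM) in ZGR3 and 324 reads (14.9 RPKM) in ZTW1, 1.49-fold higher (1.29 to 1.72). Both genes lie on chromosome VIII, as ATG7 does, and their neighbours had median log2 ratios of 0.36 and 0.19.

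Of 15 genes of membrane fusion at the vacuole, 10 lay above 0 (48% of all genes), with the interval above equality for 1 (17.9% of all genes) and below it for 2 (19.8%), and the median was 0.07. YKT6, a SNARE gene, had a log2 ratio of −0.45, equal to the median of its neighbours on chromosome XI, and the vacuolar syntaxin gene VAM3 was at 0.39. Of 19 genes of shared machinery, 8 lay above 0, with the interval above equality for 3 (17.9% of all genes) and below it for 3 (19.8%), near the shares of all genes, and the median was −0.05. VPS51, for a tethering complex subunit, was at −0.72 with 50 reads in ZGR3 and 85 in ZTW1, and SEC2, for the exchange factor of a secretory GTPase, was at 0.37. Of 9 cargo and vacuolar hydrolase genes, 3 lay above 0, with the interval above equality for 1 (17.9% of all genes) and below it for 4 (19.8%), and the median was −0.02. LAP4, the aminopeptidase that Atg19 carries, had 821 reads (115 RPKM) in ZGR3 and 1204 reads (167 RPKM) in ZTW1, 1.45-fold lower (1.33 to 1.59), and its neighbours had a median of −0.25. The receptor gene ATG19 and LAP4 thus differed in direction. AMS1, of the same list, had 8439 reads (563 RPKM) in ZGR3 and 6783 reads (448 RPKM) in ZTW1, 1.26-fold higher (1.22 to 1.30). AMS1 thus lay on the same side of equality as ATG19. AMS1 was the only gene of this list with an interval above equality. PEP4, for the vacuolar proteinase that activates other hydrolases, had 1738 RPKM in ZGR3 and 2217 RPKM in ZTW1, 1.28-fold lower (1.24 to 1.31). PRC1, next after PEP4 in size of log2 ratio, had 17404 reads (2361 RPKM) in ZGR3 and 22349 reads (2999 RPKM) in ZTW1, 1.27-fold lower (1.25 to 1.30). CPS1 was 1.18-fold lower (1.12 to 1.24). LAP4, PEP4, PRC1 and CPS1 are the 4 genes with intervals below equality.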

How the data were processed

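Per the file headers, the deposited count of each gene is its number of unique reads, and the counts sum to the total in the header. They also deposited RPKM, which reads, listed length and total gave back within a relative tolerance of 1e-06, and coverage as a percent of gene length. All listed lengths were multiples of 3 and are called coding length. Per the submitters' processing notes the build was sacCer2. Aligner, filters and strand handling were not stated in these sources, so antisense or overlapping reads cannot be told apart. Names, gene order and overlaps came from RefSeq assembly R64 by gene ID (5653 of 5659 genes, all 30 members). Coordinates of R64 were used only for gene order and overlaps, because the builds differ.

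Genes absent from a table were set to 0. The log2 ratio used a pseudocount of 1 RPKM, for the 5532 genes whose mean RPKM reached 1. Folds of reads per total carry exact 95% Clopper-Pearson intervals. Replication would be needed for edgeR's test, so edgeR 4.0.16 gave only the scaling factors. Every member is named, with reads and RPKM for kinase complex, conjugation and selective genes and for others with a log2 ratio past 0.3 in size and an interval excluding equality. Of each other list, the 2 genes furthest from 0 at a mean RPKM of at least 10 are named. Further named genes were chosen after their values were seen. Members and lists were chosen with earlier results of these data known. Steps were tested on simulated data. Tools were R 4.3.3, matplotlib 3.10.9, scipy 1.17.1, pandas 2.3.3, numpy 2.4.6 and Python 3.11.15.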

Additional observations from a re-analysis of the deposited data

How the results depend on the processing

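The alternatives were pseudocounts of 0.1 and 5 RPKM, no filter or a mean RPKM of at least 10, centring, trimmed mean of M values scaling, reads without length, a 3-fold rule, leaving out VPS30, VPS34 and YPT7, subtraction of length and chromosome medians and, chosen after seeing the data, subtraction of the neighbour median. The members' median ranged from −0.016 to 0.016, and that of the conjugation genes from −0.40 to −0.25, over these alternatives, and that of the selective genes from −0.007 to 0.13. The lowest value for all members came from leaving out VPS30, VPS34 and YPT7. The count of members at least 2-fold lower was 1 (ATG10) with a pseudocount of 0.1 RPKM. The count at least 1.5-fold lower was 1 (ATG12) at a mean RPKM of at least 10, which leaves out ATG10 and ATG14, and also 1 when the counting interval had to exclude equality. Of 298 member values, 294 stayed within their counting interval. The exceptions were ATG33 after the length correction and ATG7, ATG9 and ATG32 after subtraction of the neighbour median. Signs changed in 7 values of ATG8, ATG20, ATG32 and YPT7. No paired analysis was possible because each strain has 1 library. Depth limits ATG10, ATG12, ATG14 and ATG16, which had at most 49 reads in either library.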
